A study of Mus musculus with 8 samples.

Results

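The genes described here are 33 members of the transforming growth factor beta (TGF-beta) superfamily pathway outside the cell and at its membrane: 12 ligands, 11 receptors and co-receptors, 6 secreted antagonists and related follistatin-like proteins, and 4 latent TGF-beta binding proteins. They were chosen by gene symbol, all 33 were found among the 54532 genes of the count table, and 30 had enough reads to be tested. RNA came from lens capsules of wild-type C57BL/6 mice aged 6 to 8 weeks, 7 days after surgery, in 4 sham libraries (corneal incision with the lens capsule left closed) and 4 ASC libraries (needle incision of the anterior capsule, described by the submitters as injury-induced ASC, a fibrotic cataract model). The replicates are labelled biological, with the number of mice behind each library not given in the sources used here. In its title the series names Smurf1, a ubiquitin ligase that acts on Smad signalling, and its design sets the injured capsule against sham for changes in expression.

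Most ligands of this superfamily bind pairs of type I and type II receptor kinases, which phosphorylate Smad proteins. Whether Gdf15 acts through the receptors listed here was not tested. TGF-betas and activins act mainly through Smad2 and Smad3, and bone morphogenetic proteins (BMPs) through Smad1, Smad5 and Smad9. TGF-betas are secreted in a latent form that latent TGF-beta binding proteins (LTBPs) tether to the matrix, while antagonists such as noggin, gremlin and follistatin bind ligands directly. In the lens, TGF-beta2 of the aqueous humour is known for driving epithelial cells towards a myofibroblast state, and BMPs for supporting the epithelial and fibre cell programmes.

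Levels are given as CPM, computed with library sizes scaled by TMM, and where genes are compared with each other as CPM per kb of merged exon length. The 8 libraries held 14420494 to 21141582 counts, and the 33 genes took 0.188% to 0.277% of them. The 7 lens epithelial markers, Pax6 and Foxe3 among them, were all tested and 0 passed the test, with a summed level of 180846 CPM in sham and 192259 CPM in ASC. The crystallin Cryaa made up most of that sum (143845 and 152491 CPM on average). Pax6 lay at 437.1 to 483 CPM in sham and 386 to 436.5 CPM in ASC, without overlap (log2 fold change -0.15, adjusted p = 0.502 in edgeR). Of the 7 markers 5 had positive and 2 negative log2 fold changes. RNA of neighbouring tissue was present in both groups: the summed retinal markers lay at 988 to 4149 CPM in sham and 1949 to 3700 CPM in ASC, and the corneal keratins and Aldh3a1 at 388 to 604 and 352 to 953 CPM. Aldh3a1 made up most of the corneal sum (483 CPM in sham and 592 CPM in ASC on average), so that sum hardly reflects the keratins. The libraries sham 1 and ASC 1 stood apart from the others of their groups by low levels of zonule and ciliary epithelium genes, and results that rest on them are given with and without them. In such bulk samples fewer cells of a type and less RNA per cell cannot be told apart.

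Of the 30 tested genes 1 passed the threshold, an adjusted p under 0.05 over all genes tested, beside 1.02% of all genes. Gdf15 (ENSMUSG00000038508), the growth differentiation factor made by stressed cells, was 11.6-fold higher in ASC. The sequence upstream of its start is shown because it belongs to the single member that passed the test. RefSeq promoter windows of GRCm38.p6, 250 bases before to 50 bases after a start, were matched for 26 of the 33 genes, giving 33 windows. Tgfb3, Bmp2, Bmp7, Tgfbr3, Nog, Chrdl1 and Fst are named without a window. The 250 bases before the upstream Gdf15 start (chr8:70632457-70632706, minus strand, 5′ to 3′) read:
Gdf15: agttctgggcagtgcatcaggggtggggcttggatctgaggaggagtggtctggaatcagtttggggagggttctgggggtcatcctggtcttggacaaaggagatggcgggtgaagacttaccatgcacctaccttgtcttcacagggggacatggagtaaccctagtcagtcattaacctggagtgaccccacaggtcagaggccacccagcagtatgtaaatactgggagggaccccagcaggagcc

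The search covered 6 exact motifs on both strands, and none of them lies in either of the 2 Gdf15 windows, so nothing is in capitals above. The motifs were TGACTCA (AP-1, in 5.2% of 32851 RefSeq windows), TGACGTCA (CRE, 1.79%), TGATGCAA (C/EBP-ATF, 0.895%), GTCTAGAC (Smad binding element, 0.213%), and the Egr motifs GCGTGGGCG (0.612%) and GCGGGGGCG (2.91%). Matches were found for 5 other members, and 4 of them are printed in 60-base stretches with the match in capitals, as a contrast, since none of these genes passed the test. Offsets count from the start, with -1 the base before it. The stretches are Tgfb1 (chr7:25686852-25686911, plus strand, GCGTGGGCG read from the other strand, beginning at offset -122), Ltbp1 (chr17:75005428-75005487, plus strand, TGACGTCA at -73), Ltbp3 (chr19:5740841-5740900, plus strand, TGACTCA read from the other strand at -6) and Tgfbr1 (chr4:47353002-47353061, plus strand, GCGGGGGCG at -192). Ltbp4 held GCGGGGGCG in 2 overlapping windows. A match describes the letters, and no binding was measured.
Tgfb1: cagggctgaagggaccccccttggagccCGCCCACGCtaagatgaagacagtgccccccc
Ltbp1: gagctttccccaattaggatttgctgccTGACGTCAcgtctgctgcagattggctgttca
Ltbp3: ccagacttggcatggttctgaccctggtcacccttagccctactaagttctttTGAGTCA
Tgfbr1: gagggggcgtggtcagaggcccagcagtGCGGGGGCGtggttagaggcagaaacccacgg

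Gdf15 stood at 2.06, 1.31, 2.57 and 1.19 CPM in the 4 sham libraries (16 to 53 reads each) and at 32.4, 24.1, 12.9 and 14.4 CPM in the 4 ASC libraries (214 to 508 reads each). The lowest ASC library was above the highest sham library, and within ASC the libraries ASC 1 and ASC 2 stood above ASC 3 and ASC 4. The means were 1.78 ± 0.650 CPM in sham and 20.96 ± 9.09 CPM in ASC (SD, n = 4). The log2 fold change was 3.53 (SE 0.37, 95% confidence interval 2.68 to 4.38, adjusted p = 0.0036 in edgeR's quasi-likelihood test with Benjamini-Hochberg adjustment), which is a fold of 6.41 to 20.8. DESeq2 gave 3.55 (adjusted p = 7.7e-25) and limma-voom 3.30 (adjusted p = 0.0188). With each library left out in turn the log2 fold change stayed between 3.24 (without ASC 1) and 3.76 (without sham 3). On the length scale Gdf15 ranked 10 of 12 ligands in sham, at 0.962 ± 0.351 CPM per kb, and 4 of 12 in ASC, at 11.3 ± 4.91 CPM per kb. Its share of the summed length-scaled ligand level was 0.893% ± 0.316 in sham and 8.57% ± 3.17 in ASC.

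The sums given here of markers of other cells and responses had higher means in ASC. No list passed the exact permutation test (lowest adjusted p = 0.157), whose smallest possible p is 0.0286 before adjustment. The pigment cell and macrophage sums overlapped between the groups (adjusted p = 0.21 and 0.377 in that test). The 10 immediate early genes summed to 90.2 to 205 CPM in sham and 1049 to 1734 CPM in ASC, and 6 of them passed the test as higher. All 10 had a positive log2 fold change and an unadjusted p under 0.05 in edgeR. The 5 red cell genes summed to 40.1 to 62.8 CPM in sham and 73.9 to 370 CPM in ASC, the 6 pigment cell markers to 88.4 to 255 and 180 to 653 CPM, and the 7 macrophage markers to 8.80 to 39.2 and 16.9 to 62.9 CPM. In these 3 lists 0 genes passed the test, and no marker of them was at 0 in either group. The neutrophil markers summed to at most 2.025 CPM in any library, with Cxcr2 at 0 throughout and S100a8 at 0 in sham. When the red cell sum entered the model as a covariate, Gdf15 stood at 3.23 (SE 0.56) and lost its call (adjusted p = 0.203 in edgeR). In that fit 11 genes of all tested were called higher and 1 lower. Between the groups this red cell sum was separate with TMM scaling, and with library totals it overlapped narrowly (sham up to 68.2 CPM, ASC from 67.0 CPM), so blood and group can hardly be told apart by it. With the lens fibre, pigment cell, retina or macrophage level in its place Gdf15 stood at 3.53 to 3.90 and passed (highest adjusted p = 0.0229 in edgeR). The parts of the immediate early response and of corneal epithelium in the Gdf15 result were not tested.

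**Figure D1:**
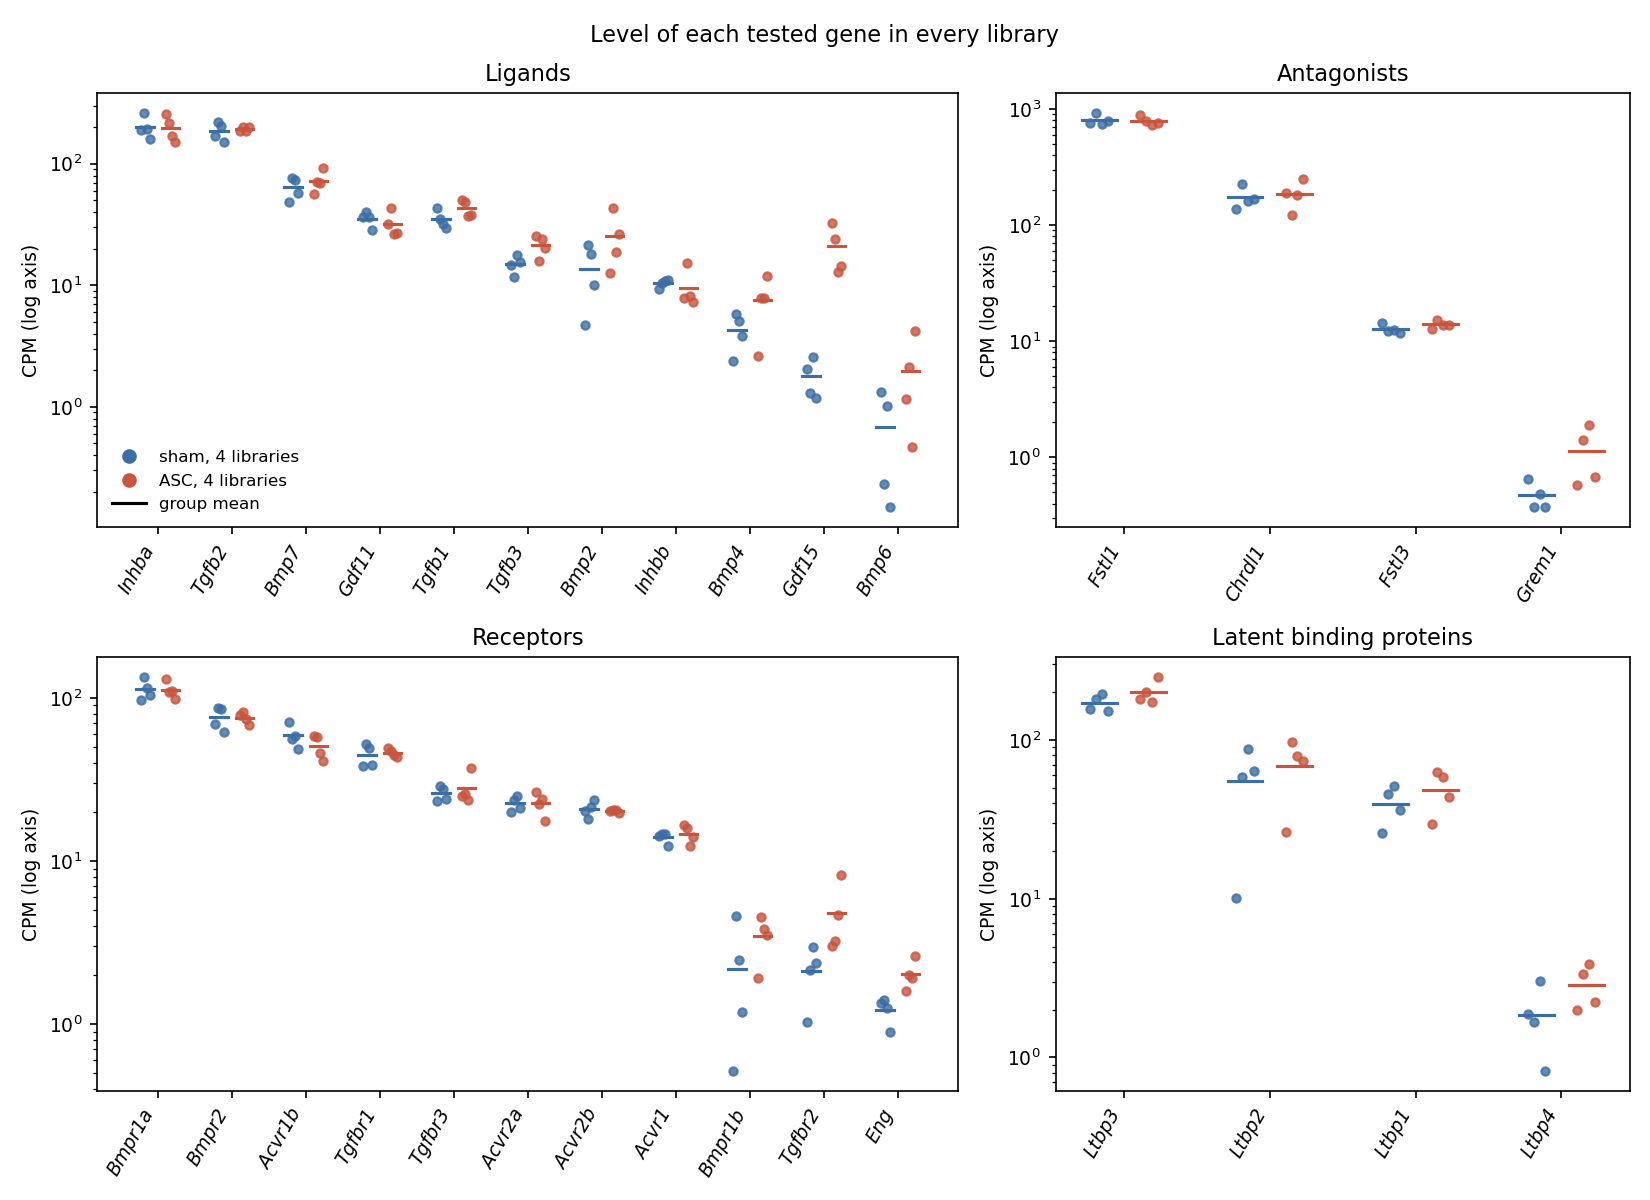
Level of each of the 30 tested genes in CPM (log axis) in every library, by role, with sham in blue, ASC in red and a line at each group's mean. Gdf15 is the ligand whose 4 ASC points (12.9 to 32.4 CPM) lie far above its 4 sham points (1.19 to 2.57 CPM), while most other genes have overlapping points.

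Among all 15857 genes tested, 1.02% passed the threshold, 0.631% higher and 0.391% lower in ASC. Of the 30 tested members 1 was higher and 0 lower. DESeq2 and limma-voom also called Gdf15 alone among the members, beside 1.89% and 0.555% of all genes called higher. Without the filter on low counts 6 members were called higher, beside 1.37% of all genes in that fit. The groups did not overlap for 3 of the 30 members, Gdf15, Tgfbr2 and Eng, beside 9.06% of all genes tested. An unadjusted p under 0.05 was reached by 5 members (16.7%), beside 14.7% of all genes tested. The shares of the set without overlap and with a low p thus lie close to those of all genes. The median log2 fold change of the 30 was 0.15, beside 0.008 for all genes tested, and 22 were positive. Scaling by library totals alone moved the median of all genes to -0.12, that of the members to 0.03, and the number of positive members to 16. For 20 of the 30 the 95% confidence interval lay within a 2-fold change in either direction, as it did for 11455 of all genes tested.

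**Figure D2:**
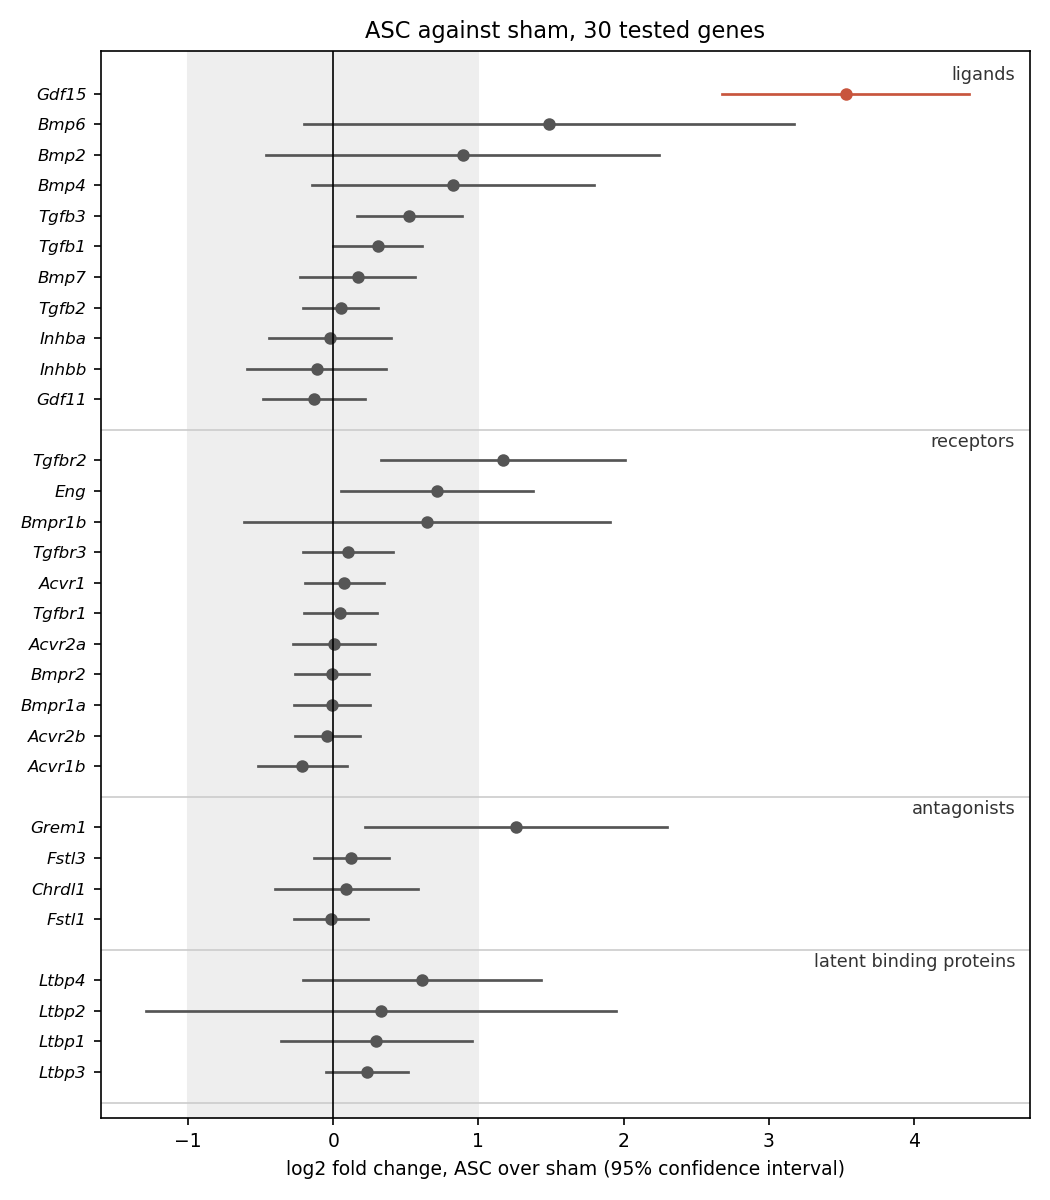
Log2 fold change of ASC over sham with its 95% confidence interval for the 30 tested genes, by role; the grey band marks a change of less than 2-fold and red marks the gene past the threshold. Only the Gdf15 interval (2.68 to 4.38) lies wholly outside the band, and the Ltbp2 interval (-1.29 to 1.95) extends past both edges of the band.

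The TGF-beta ligands were led by Tgfb2 in both groups. Tgfb2, the isoform associated with the eye's aqueous humour, had 170, 219, 204 and 152 CPM in sham and 188, 199, 185 and 200 CPM in ASC. The ASC values lay within the sham range, and the log2 fold change was 0.05 (interval -0.21 to 0.31). Per kb, Tgfb2 made up 73.6% ± 4.03 of the 3 TGF-beta ligands in sham and 69.1% ± 3.002 in ASC, Tgfb1 16.1% ± 3.03 and 17.8% ± 2.37, and Tgfb3 10.3% ± 2.29 and 13.1% ± 2.70. Tgfb1, the isoform most studied in wound repair, had 43.6, 35.1, 31.97 and 29.5 CPM in sham and 49.996, 48.5, 37.0 and 37.9 CPM in ASC. All 4 ASC libraries were above 3 of the sham libraries, and sham 1 lay among them. Its log2 fold change was 0.31 (interval -0.001 to 0.61, adjusted p = 0.34 in edgeR). Tgfb3 had 14.7, 11.6, 17.6 and 15.6 CPM in sham and 25.5, 15.7, 23.9 and 20.3 CPM in ASC. Of the ASC libraries only ASC 2 fell inside the sham range. The log2 fold change of Tgfb3 was 0.52 (SE 0.17, interval 0.16 to 0.88, adjusted p = 0.17 in edgeR). It passed where no filter on low counts was used (0.51, adjusted p = 0.0137), and not in DESeq2 (adjusted p = 0.12) or limma-voom (adjusted p = 0.141). Exons of Tgfb3 are overlapped over 12.4% of their length by 2 gene models on the other strand, with use of strand in counting not given in the sources used here.

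Among the activin and GDF ligands Inhba was about as abundant as Tgfb2. Inhba, the subunit of activin A, was at 31.4 ± 6.67 CPM per kb in sham, which does not differ from Tgfb2 (32.2 ± 5.29) beyond the spread, and had a log2 fold change of -0.02 (interval -0.44 to 0.40). Both lay at about the same place among all tested genes, at the 94.6 and 94.7 percentile. Inhbb, the subunit of activin B, was at 2.45 CPM per kb (log2 fold change -0.11), and Gdf11, a ligand of activin receptors, at 8.69 CPM per kb (-0.13, interval -0.48 to 0.22).

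Among the BMPs, Bmp7, which the developing lens requires, was the most abundant at 15.9 ± 3.35 CPM per kb in sham and 17.9 ± 3.70 in ASC (log2 fold change 0.17, interval -0.23 to 0.56). Bmp2 (log2 fold change 0.89, interval -0.46 to 2.24) and Bmp4 (0.83, interval -0.14 to 1.80) had higher means in ASC with overlapping groups. Bmp2 fell to 0.49 without ASC 2, and Bmp4 to 0.52 without ASC 4. Bmp4 passed without the low-count filter (0.81, adjusted p = 0.0418). Bmp6 ranged from 2 to 28 reads in sham and 8 to 62 in ASC (log2 fold change 1.49, interval -0.20 to 3.17). It too passed without that filter (1.47, adjusted p = 0.0372), and without ASC 4 its log2 fold change fell to 0.83. Bmp5 had 0 to 6 reads per library and was not tested.

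**Figure D3:**
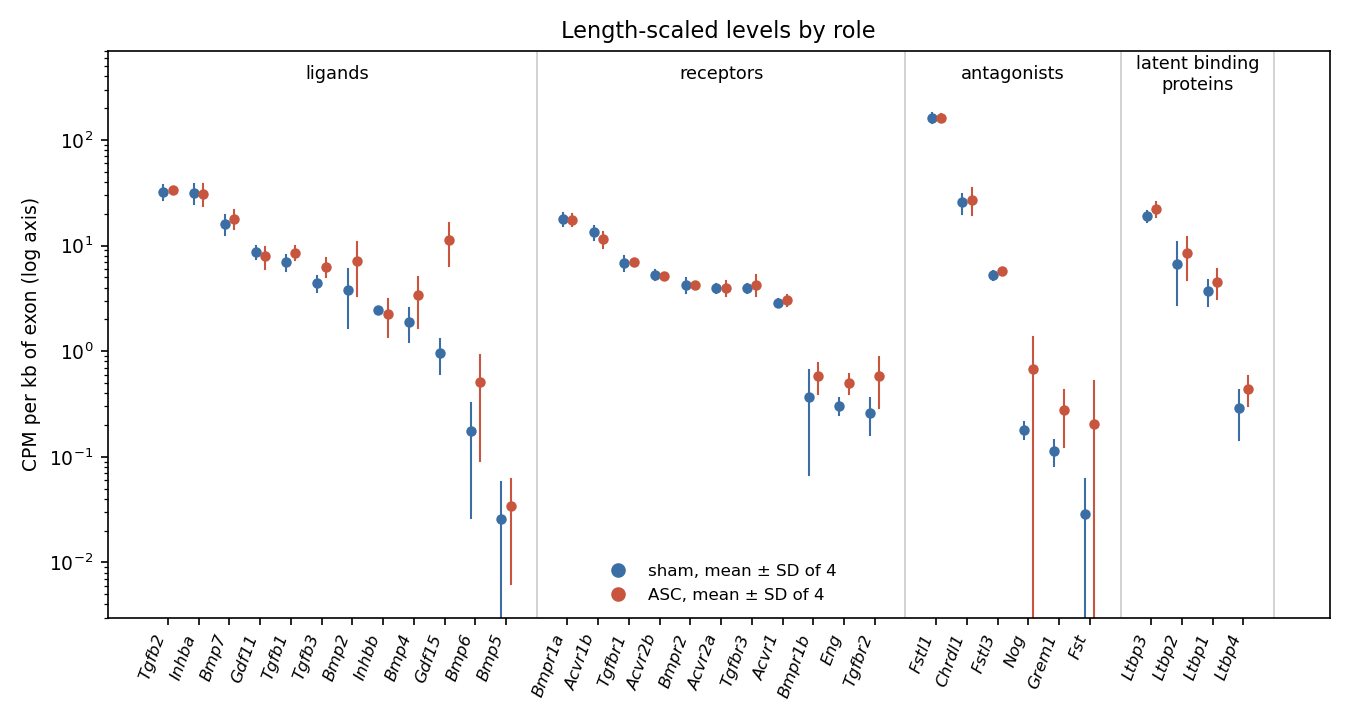
Length-scaled level, in CPM per kb of merged exon (log axis), of all 33 genes by role, as mean ± SD of 4 sham (blue) and 4 ASC (red) libraries; a bar that reaches the lower edge extends to or below 0. Fstl1 is the highest (162 CPM per kb in sham), Tgfb2, Inhba, Chrdl1 and Ltbp3 follow, and the receptors Tgfbr2, Eng and Bmpr1b (0.260 to 0.367 CPM per kb in sham) lie well below the next receptor, Acvr1 (2.89).

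Most receptors differed little between the groups, and the 3 rarest varied most. Of 11 tested, 0 passed, and for 8 the confidence interval lay within a 2-fold change. Bmpr1a, a type I receptor for BMPs and the most abundant receptor per kb, had 97.0, 134, 115 and 104 CPM in sham and 131, 108, 110 and 98.2 CPM in ASC. The groups overlapped throughout, and the log2 fold change was -0.01 (interval -0.27 to 0.25). Acvr1b, a type I receptor for activin (also called ALK4), had 71.5, 56.4, 58.8 and 48.8 CPM in sham and 58.0, 57.8, 46.2 and 41.0 CPM in ASC. Its groups overlapped, with a log2 fold change of -0.21 (interval -0.52 to 0.09). The type I receptors Tgfbr1 (0.05) and Acvr1 (0.08), the type II receptors Bmpr2 (-0.01), Acvr2a (0.01) and Acvr2b (-0.04), and the co-receptor betaglycan, Tgfbr3 (0.10), had intervals between -0.28 and 0.41. Bmpr1b, a type I receptor for BMPs, ranged from 0.515 to 4.58 CPM in sham and 1.91 to 4.56 CPM in ASC (0.64, interval -0.62 to 1.90).

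Tgfbr2, the type II receptor that TGF-beta binds, was among the rarest receptors. It had 1.03, 2.15, 2.95 and 2.38 CPM in sham (22 to 61 reads) and 2.997, 3.26, 4.69 and 8.23 CPM in ASC (47 to 122 reads). The groups did not overlap, though the lowest ASC library lay just above the highest sham library. The log2 fold change was 1.17 (SE 0.39, interval 0.33 to 2.01, adjusted p = 0.191 in edgeR, 0.0689 in DESeq2 and 0.16 in limma-voom), falling to 0.78 without ASC 4. Without the low-count filter it passed (1.15, adjusted p = 0.0043). Per kb, Tgfbr1 stood 20.3-fold to 46.7-fold above Tgfbr2 in the sham libraries and 6.56-fold to 20.7-fold above it in the ASC libraries. ASC 1, the highest ASC ratio, lay between sham 4 (20.3) and sham 3 (20.9), and the other 3 ASC libraries lay below every sham library.

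Endoglin, Eng, a TGF-beta co-receptor typical of blood vessels, had 1.36, 1.401, 1.26 and 0.893 CPM in sham and 1.59, 2.01, 1.91 and 2.63 CPM in ASC, from 12 to 39 reads per library. The groups did not overlap, and the log2 fold change was 0.71 (interval 0.05 to 1.37, adjusted p = 0.303 in edgeR). Its endothelial partner receptor Acvrl1, named after its values were seen, ranged from 0.149 to 0.889 CPM in sham and from 0.945 to 1.15 CPM in ASC. Its log2 fold change was 1.06 (interval 0.06 to 2.07, adjusted p = 0.312 in edgeR). The 7 endothelial markers summed to 7.52 to 19.4 CPM in sham and 5.80 to 17.4 CPM in ASC. Of these 5 were tested and 0 passed, and none was at 0 in either group.

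The antagonist class was dominated by Fstl1, a secreted glycoprotein related to follistatin that binds BMPs. Fstl1 had 754, 916, 743 and 780 CPM in sham and 884, 789, 729 and 753 CPM in ASC. It took 84.0% ± 0.966 of the length-scaled level of the 6 genes in sham and lay at the 99.0 percentile of all tested genes. The groups overlapped, and its log2 fold change was -0.02 (interval -0.27 to 0.24). Chrdl1, a chordin-like BMP antagonist, had 138, 226, 160 and 167 CPM in sham and 188, 121, 180 and 248 CPM in ASC (0.09, interval -0.40 to 0.58). Fstl3, which binds activins, had 14.4, 12.2, 12.6 and 11.8 CPM in sham and 12.7, 15.3, 13.9 and 13.9 CPM in ASC (0.13, interval -0.13 to 0.38). Neither separated the groups. Exons of Fstl3 are overlapped over 47.3% of their length by Prss57 on the other strand, so reads of the pair may be mixed.

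The classical antagonists were near the limit of detection. Grem1, gremlin, had 0.655, 0.374, 0.484 and 0.372 CPM in sham (5 to 14 reads) and 0.574, 1.41, 1.91 and 0.675 CPM in ASC (9 to 33 reads). Its ASC 2 and ASC 3 libraries were highest and the groups overlapped (log2 fold change 1.26, SE 0.48, interval 0.22 to 2.30, adjusted p = 0.25 in edgeR). Nog, noggin, had 5 to 7 reads in each sham library, 4 and 3 in ASC 1 and ASC 3, and 29 and 39 in ASC 2 and ASC 4, and was not tested. Fst, follistatin, had 0 to 7 reads in every library but ASC 2, which held 58. It was not tested, and its call without the low-count filter (log2 fold change 2.72, adjusted p = 0.007) rests on that library.

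The 4 latent binding proteins had positive log2 fold changes, from 0.23 to 0.61, with 0 past the test, beside 8146 positive among all 15857 genes tested. They remained positive when scaled by library totals alone, but without sham 1 Ltbp2 turned to -0.024 and Ltbp1 fell to 0.13, and without ASC 4 Ltbp3 fell to 0.11. Ltbp3, a partner of latent TGF-beta and the most abundant of them, had 157, 182, 194 and 152 CPM in sham and 181, 201, 174 and 249 CPM in ASC. ASC 4 was the highest library, and the groups overlapped (0.23, interval -0.05 to 0.51). Ltbp1, which also carries latent TGF-beta, had 25.8, 45.6, 51.2 and 36.5 CPM in sham and 29.7, 63.2, 58.5 and 43.9 CPM in ASC (0.30, interval -0.36 to 0.96). Ltbp4, a further matrix carrier, had 1.87, 1.68, 3.05 and 0.819 CPM in sham and 1.98, 3.37, 3.88 and 2.23 CPM in ASC (0.61, interval -0.21 to 1.43). The groups overlapped in both genes.

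Ltbp2, a component of the ciliary zonule that suspends the lens and the LTBP that does not bind latent TGF-beta, varied far more between libraries of 1 group than between the groups. It had 10.1, 58.7, 88.2 and 63.9 CPM in sham and 26.4, 96.8, 79.2 and 74.2 CPM in ASC, values named after they were seen. Sham 1 stood at 14.4% of the mean of the other sham libraries and ASC 1 at 31.7% of the mean of the other ASC libraries. Bmp2 was also lowest in sham 1 and ASC 1, with 4.73 CPM in sham 1 against 9.97 to 21.5 CPM, and 12.6 CPM in ASC 1 against 18.7 to 43.5 CPM. Of the 30 tested members 7 (23.3%, beside 8.27% of all genes tested) had their lowest sham value in sham 1 and their lowest ASC value in ASC 1, Bmp4, Bmp7, Bmpr1b, Ltbp1 and Tgfbr2 among them. As many members, 7, were lowest in sham 4 and ASC 3 (beside 6.28% of all genes tested), so the count does not set sham 1 and ASC 1 apart.

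The zonule and ciliary epithelium genes examined beside them, a list added after the data were seen, were low in the same pair of libraries. Fbn1, fibrillin-1 of the zonule, had 40.5 CPM in sham 1 against 164 to 223 CPM in the other sham libraries, and 75.4 CPM in ASC 1 against 184 to 329 CPM. Optc, opticin, which the ciliary epithelium secretes, had 22.4 CPM in sham 1 against 123 to 170 CPM, and 58.0 CPM in ASC 1 against 131 to 172 CPM. Fbn2, Best2 and Zic1 were likewise lowest in sham 1 and ASC 1. The summed retinal markers were also lowest there, at 988 and 1949 CPM. So were the macrophage markers, at 8.80 CPM in sham 1 against 26.1 to 39.2 CPM and 16.9 CPM in ASC 1 against 52.0 to 62.9 CPM. Of the 7 most abundant members per kb, Tgfb2, Inhba, Fstl1 and Bmpr1a had sham 1 at 82.3% to 92.9% and ASC 1 at 96.4% to 143% of the other libraries of the group, though sham 1 was the lowest sham library for Bmpr1a. Ltbp3 stood at 89.0% and 86.8%, Chrdl1 at 75.0% and 102%, and Bmp7 at 69.4% and 72.3%.

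**Figure D4:**
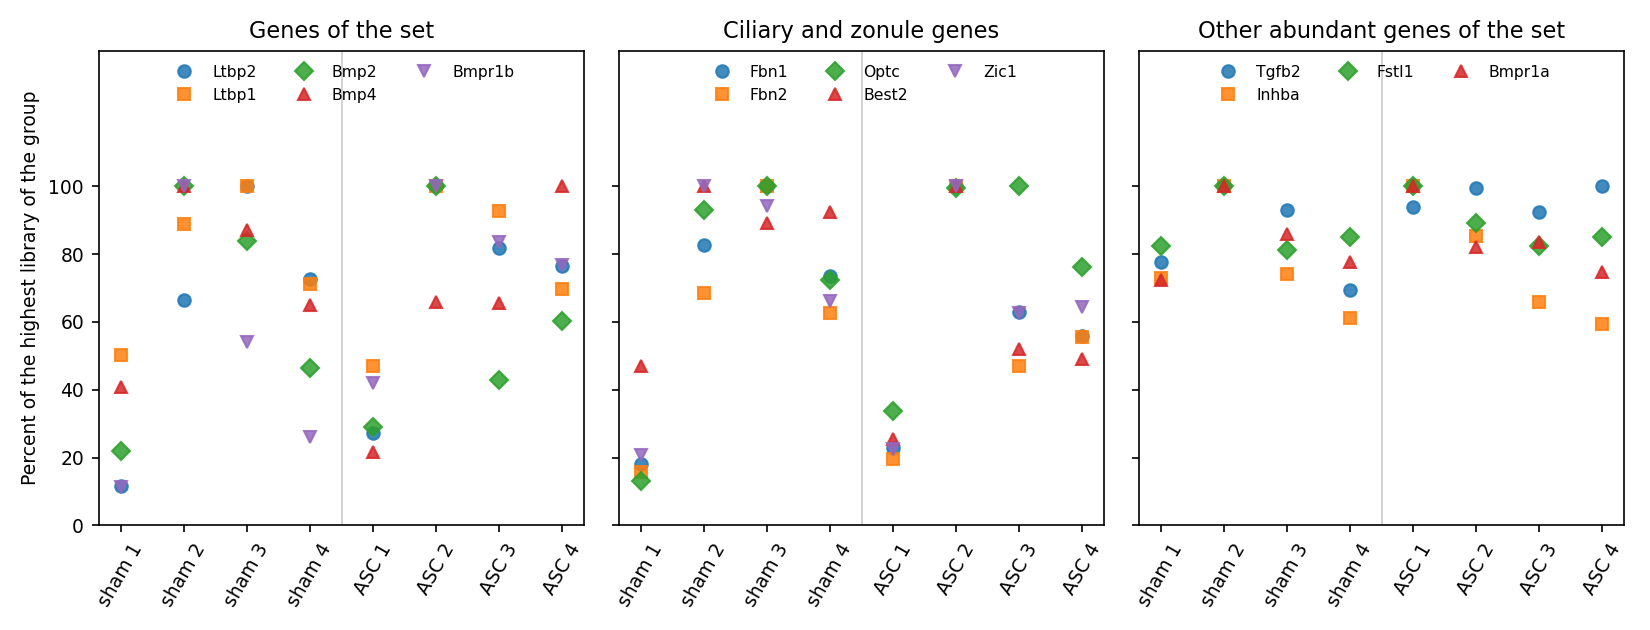
Level in each library as a percent of the highest library of its group, for 5 genes of the set picked from those lowest in sham 1 and ASC 1 (left), 5 ciliary and zonule genes (centre) and 4 abundant genes of the set (right). Chrdl1, Ltbp3 and Bmp7, also abundant, are not drawn. Of these Bmp7 was lowest in sham 1 and ASC 1, and Chrdl1 had its lowest sham value in sham 1. In the left and centre panels sham 1 and ASC 1 are the lowest libraries of their groups, as for Ltbp2 (10.1 and 26.4 CPM) and Fbn1 (40.5 and 75.4 CPM), while on the right sham 1 is the lowest sham library for Bmpr1a alone and ASC 1 the lowest ASC library for none of the 4 genes.

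Leaving out sham 1 and ASC 1 was chosen after the values were seen. Both were the lowest of their groups for Ltbp2, Bmp2, Bmp4 and Tgfbr2, so narrower intervals are no independent support. Without sham 1 and ASC 1 the SE of Ltbp2 fell from 0.67 to 0.17, with a log2 fold change of 0.25 (interval -0.12 to 0.62, adjusted p = 0.578 in edgeR). Bmp4 then stood at 0.90 (interval 0.37 to 1.44, adjusted p = 0.164 in edgeR), Bmp2 at 0.82 (interval -0.17 to 1.82) and Tgfbr2 at 1.10 (interval 0.33 to 1.87). Gdf15 was again the only member past the test (3.32, adjusted p = 0.0073 in edgeR), beside 0.314% of all genes called higher in that fit. The part of ciliary tissue in the Bmp2, Bmp4 and Tgfbr2 values was not tested.

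In the rest of the pathway outside the 33 genes few genes passed the test. Of 4 other superfamily ligands tested 0 passed, the most abundant being Gdf10 (30.6 ± 9.06 CPM in sham and 27.3 ± 8.18 CPM in ASC). Of 5 other receptors and co-receptors 0 passed, led by the BMP co-receptor Rgmb (61.7 ± 4.87 and 60.4 ± 3.28 CPM). Of 12 other secreted antagonists 0 passed. They were led by Crim1, a membrane-tethered BMP binder important for lens development, at 1624 ± 222 and 1740 ± 110 CPM. Unadjusted p-values under 0.05 in edgeR were reached by 0, 1 and 2 genes of these lists, and DESeq2 and limma-voom called 0 in each.

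Activators and matrix stores of latent TGF-beta had 0 of 18 past the test (3 at an unadjusted p under 0.05 in edgeR; DESeq2 called 2 and limma-voom 0). Their median log2 fold change was 0.20. Itgb5, an integrin subunit and the most abundant, averaged 419 ± 27.3 CPM under sham and 438 ± 39.8 CPM under ASC surgery. The pair that DESeq2 called, named after their values were seen, activate latent TGF-beta. Thrombospondin-1, Thbs1, had 11.4, 9.01, 10.8 and 4.39 CPM in sham and 22.3, 34.0, 20.1 and 43.0 CPM in ASC. Its log2 fold change was 1.73 (interval 0.92 to 2.53, adjusted p = 0.0698 in edgeR). The integrin subunit Itgb8 had 33.4, 38.2, 33.5 and 25.2 CPM in sham and 41.5, 59.4, 46.1 and 71.9 CPM in ASC, with a log2 fold change of 0.75 (interval 0.34 to 1.15, adjusted p = 0.0893 in edgeR). Decorin, Dcn, a matrix proteoglycan that binds TGF-beta, was the third gene of the list with an unadjusted p under 0.05 and was called by none of edgeR, DESeq2 and limma-voom. Dcn, also a stromal marker and named after its values were seen, had 2.43, 1.96, 5.81 and 0.670 CPM in sham and 7.59, 8.15, 31.2 and 8.37 CPM in ASC, a log2 fold change of 2.31 (interval 0.53 to 4.10, adjusted p = 0.235 in edgeR). In all 3 genes every ASC library lay above every sham library.

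Smads and their regulators showed 0 of 15 past the test (1 at an unadjusted p under 0.05 in edgeR, 0 by DESeq2 and limma-voom). All 15 intervals lay within a 2-fold change, with Ppm1a, a Smad phosphatase, the most abundant (0.14). Of 14 TGF-beta/Smad3 target genes 2 passed the test as higher and 0 as lower (14.3% higher, beside 0.631% of all genes), with a median of 0.38. An unadjusted p under 0.05 in edgeR was reached by 6 (42.9%, beside 14.7% of all genes), the groups did not overlap for 5, and DESeq2 called 5 and limma-voom 3. The list was chosen with earlier results of these data known, so its shares beside those of all genes are a description and no independent evidence. Junb of this list is also an immediate early gene. The 2 that passed were Col1a1, a chain of type I collagen (1.83, 2.01, 1.16 and 1.19 CPM in sham, 4.34, 4.02, 4.57 and 5.13 CPM in ASC), and the transcription factor Bhlhe40 (36.1, 30.1, 53.1 and 24.8 against 97.4, 74.8, 113 and 104 CPM). Their log2 fold changes were 1.53 (adjusted p = 0.0186) and 1.43 (adjusted p = 0.0327) in edgeR. Col1a1 is also on the list of 6 corneal stroma and fibroblast markers, of which 3 of 4 tested had an unadjusted p under 0.05 in edgeR, with a median log2 fold change of 1.46. The list summed to 319 to 382 CPM in sham and 297 to 413 CPM in ASC, but Pdgfra made up most of that sum (337 and 311 CPM on average). The other stromal markers had higher means in ASC: Dcn 2.72 and 13.8 CPM, Col3a1 0.567 and 1.51 CPM, and Lum 0.189 and 0.904 CPM, with Kera at 0 in every library but ASC 3. Each of them was highest in ASC 3. Lum, not tested, had 43 reads there and 2 to 10 in the other ASC libraries. Col3a1 (adjusted p = 0.27 in edgeR) had 0.701 and 0.489 CPM in ASC 1 and ASC 2, against 0.521 to 0.655 CPM in sham. The part of stromal cells in the Col1a1 result was not tested. The 6 corneal epithelial markers, of which 3 of 5 tested rose, summed as given above, and their part was not tested. Neither Col1a1 nor Bhlhe40 passed without sham 4, without ASC 3, without ASC 4, or without sham 1 and ASC 1 together (adjusted p = 0.0635 for Col1a1 and 0.163 for Bhlhe40 in edgeR). Bhlhe40 also did not pass without sham 1, sham 2 or ASC 1, or with scaling by library totals (adjusted p = 0.063 in edgeR). Of 10 BMP/Smad1/5 target genes 0 passed (2 at an unadjusted p under 0.05 in edgeR, 0 by DESeq2 and limma-voom). Without the low-count filter Msx2 was called lower (-0.56, adjusted p = 0.0014 in edgeR). The list's median was -0.23, with 8 negative, and the most abundant, Id3, stood at 0.25 (interval -0.007 to 0.51).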

How the data were processed

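RNA-seq read counts were analysed for 4 sham and 4 ASC lens capsule libraries. The authors deposited 1 table of whole-number counts per gene, not normalized. CASAVA, fastp, HISAT2 2.0.5 and featureCounts 1.5.0-p3 are listed in the submitters' processing notes, with build, annotation, strand setting and multi-mapping rule not given in the sources used here.

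Symbols were matched for 54409 of 54532 identifiers. Exon lengths came from GENCODE mouse release 21. The main test was edgeR 4.0.16 in R 4.3.3 (filterByExpr, TMM, robust quasi-likelihood F test, ASC against sham, no covariate), fitted on 15857 genes, with Benjamini-Hochberg adjustment over all of them and a threshold of 0.05. SE is the log2 fold change divided by the square root of F. Summed marker levels were compared by two-sided exact permutation over 70 assignments (smallest p 0.0286). The lowest were 0.0286 for red cell and immediate early genes, adjusted p = 0.157 over 11 lists. The steps were tested on simulated data. Reads carry no molecular identifiers, so precision refers to reads.

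Alternatives were DESeq2 1.42.0, limma-voom (limma 3.58.1), other scalings and filters, a replicate block, left-out libraries and, added after seeing the data, marker levels as covariates. The members and lists were chosen with earlier results of these data known. All members were to be named. Values in every library were to be given for members past the threshold, the 3 TGF-beta ligands, and in each class the highest per kb and the 3 lowest p-values. From each pathway list came the called genes, or else the most abundant.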

Additional observations from a re-analysis of the deposited data

Results flagged for a closer look

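In 60 groups of 4 log2 CPM values (30 tested members in 2 conditions), 2 held a library far from the other 3 by Dixon's criterion at the 95% level, where chance flags about 1 group in 20. Inhbb had a log2 CPM of 3.93 in ASC 2, against 2.87 to 3.04 in the other ASC libraries. Acvr1 had a log2 CPM of 3.64 in sham 4, against 3.85 to 3.88 in the other sham libraries.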

How the results depend on the processing

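Without covariates, Gdf15 passed in all 19 alternative fits and at the 0.01 threshold (log2 fold change 3.24 to 3.76, highest adjusted p = 0.028 in edgeR with a library left out), and 0 members were called lower in any of them. Without a filter on low counts 6 members were called higher (1.37% of all genes in that fit): Gdf15, Tgfb3, Bmp4, Bmp6, Tgfbr2 and Fst. With the red cell level as a covariate, also chosen after seeing the data, 0 members were called. The cause was not tested. Over all genes, 100 higher and 62 lower calls became 339 and 233 with DESeq2, 430 and 282 without a filter, 31 and 13 at the 0.01 threshold, and 50 and 20 without sham 1 and ASC 1, an alternative chosen after seeing the data. The replicate block gave 130 higher and 39 lower calls and changed no member's call, though outside the set it called Dcn (adjusted p = 0.0048 in edgeR). Whether the numbers pair the samples is not known, and these values cannot settle it. Same-numbered libraries deviated together in part only (correlations 0.22, 0.06, 0.21 and -0.09). Not every sample correlated best with its own number, though sham 3 and ASC 3 did. Leaving out 1 library gave 40 to 167 higher and 16 to 61 lower calls (fewest without sham 2, most without ASC 2). Higher calls also fell by over 1.5 times without sham 1 (51), sham 4 (45), ASC 3 (49) and ASC 4 (45), and lower calls without sham 1 (28), sham 3 (34), sham 4 (22), ASC 1 (30), ASC 3 (23) and ASC 4 (22).

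Of the members that did not pass the threshold, those near 0 and Ltbp2 changed sign in some fits. With library totals these were Tgfb2 (-0.083), Tgfbr1 (-0.0889), Tgfbr3 (-0.0184), Acvr1 (-0.0533), Acvr2a (-0.14) and Chrdl1 (-0.0434). With limma-voom they were Bmpr1a (6.99e-04), Bmpr2 (0.0119) and Acvr1 (-0.00443). Acvr2a stood at -0.0126 with upper quartile scaling and -0.00442 without a filter, and Bmpr2 at 0.00117 with the replicate block. Without sham 1 and ASC 1 Tgfbr1 was at -0.0529, Acvr2a at -0.13 and Chrdl1 at -0.0125, while Inhba (-0.19), Bmpr1a (-0.16) and Fstl1 (-0.10) kept their negative sign. With 1 library left out the ranges were -0.0371 to 0.13 for Tgfb2, -0.17 to 0.12 for Inhba, -0.0194 to 0.12 for Tgfbr1, -0.0709 to 0.17 for Tgfbr3, -0.0971 to 0.0768 for Bmpr1a, -0.096 to 0.0524 for Bmpr2, -0.0734 to 0.10 for Acvr2a, -0.11 to 0.0183 for Acvr2b, -0.0904 to 0.25 for Chrdl1, -0.0775 to 0.0476 for Fstl1 and -0.024 to 0.65 for Ltbp2 (lowest without sham 1). The ratio of ASC to sham of the summed lens epithelial markers was 0.976 with library totals and 0.984 to 1.14 with a library left out. That of the endothelial markers was 0.979 and 0.939 to 1.302, and that of the stromal markers 0.892 to 1.01 with a library left out. Reads per library limit the rare members: with under 100 reads in most libraries, Tgfbr2, Eng, Grem1, Bmp6 and Bmpr1b have intervals that include a change of 2-fold.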

Other observations

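Among the TGF-beta/Smad3 target genes, Tgfbi and Junb were called by DESeq2 and not by edgeR, and they are given here as values, chosen after they were seen. Tgfbi, a secreted matrix protein of the cornea, had 1.49 to 2.10 CPM in sham and 2.55, 3.42, 5.55 and 21.2 CPM in ASC, with ASC 4 far above the rest. Junb, which is also on the immediate early list, had 4.47 to 28.2 CPM in sham and 89.3 to 214 CPM in ASC. In both genes every ASC library lay above every sham library.

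The BMP target genes Msx1 and Msx2, homeobox factors, had the lowest p-values of their list, with lower means in ASC. Msx1 had 60.8, 74.5, 64.2 and 56.4 CPM in sham and 50.4, 43.0, 51.6 and 59.4 CPM in ASC (log2 fold change -0.33, adjusted p = 0.225 in edgeR). Msx2 had 31.9, 29.3, 25.4 and 24.5 CPM in sham and 24.7, 22.6, 16.5 and 12.1 CPM in ASC (-0.55, adjusted p = 0.253 in edgeR, and 0.0014 without the low-count filter). The groups overlapped in both. Of the 9 lens fibre markers 1 passed the test as higher, the gamma crystallin Cryga (3.18 ± 1.06 CPM in sham, 39.5 ± 20.2 CPM in ASC). Its reads may be shared with closely similar gamma crystallins. All 9 had positive log2 fold changes, and 3 had an unadjusted p under 0.05 in edgeR.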
